A study of Mus musculus with 29 samples.

Results

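Csf1r, Csf2ra, Csf2rb, Csf2rb2, Csf3r, Flt3 and Kit encode the receptors through which colony-stimulating factors, FLT3 ligand and stem cell factor reach myeloid cells, and Csf1 encodes one of the ligands. They were chosen by symbol, and all 8 genes were found among the 23930 genes of the deposited table of RPM, reads of a gene scaled to a common library total. The table holds 29 libraries of macrophages sorted from spleen and liver of untreated mice, in 9 groups, with the question of how lack of the lysosomal ribonuclease RNase T2 changes these cells. Wild-type mice were C57BL/6, and Rnaset2-/- mice (KO) lack both Rnaset2a and Rnaset2b. The spleen gave Ly6C-hi cells (3 WT and 3 KO libraries) and Ly6C-low cells (3 WT and 4 KO), and the liver gave Ly6C-hi cells (3 WT and 3 KO), Ly6C-low cells (3 WT and 3 KO) and Kupffer cells (KCs, the resident macrophages of the liver, 4 WT). Per the labels, the Ly6C-hi and Ly6C-low sorts took CD11b+ cells without Ly6G, SiglecF or NK1.1, the Ly6C-low sort also asked for Fcgr4 (CD16.2), and KCs were sorted on F4/80 and Tim4, with intermediate CD11b and little PDCA-1. Ages of the mice, and whether libraries of a group came from separate animals, are not given in the sources used here, so p-values measure the spread between these libraries, which may be technical. The methods text gives the same Ly6C-low gate for both hepatic subsets of Rnaset2-/- mice, so the group labels are used here as given. The targeted genes were not analysed here.

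These receptors fall into distinct families. CSF1R, FLT3 and KIT are receptor tyrosine kinases of the same family, which pair and phosphorylate each other when ligand binds. Many macrophages and some monocytes depend on CSF1R to live. FLT3 marks progenitors and dendritic cells, and KIT marks stem cells, early progenitors, mast cells and some endothelial cells. CSF2RA binds GM-CSF and signals with the common beta chain CSF2RB, which also serves the receptors of IL-3 and IL-5, while mice carry in CSF2RB2 a further beta chain that serves IL-3. CSF3R, the G-CSF receptor, belongs to the neutrophil lineage and is also found on monocytes. Beta chains and CSF3R signal through JAK2 and STAT proteins.

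By GENCODE vM21 on the GRCm38 build (mm10 in the submitters' processing notes), Csf1r lies on chromosome 18 from 61100598 to 61132149 on the plus strand and Csf1 on chromosome 3 from 107741048 to 107760469 on the minus strand. Csf2ra lies on chromosome 19 from 61223957 to 61228429 (minus), and Csf3r on chromosome 4 from 126024550 to 126044440 (plus). Chromosome 5 holds Kit from 75574916 to 75656722 (plus) and, far from it, Flt3 from 147330741 to 147400489 (minus). Csf2rb2 from 78282507 to 78305721 (minus) and Csf2rb from 78325752 to 78353847 (plus) are neighbours on chromosome 15. The assay amplifies selected stretches of each transcript, whose positions are not given in the sources used here. Levels are therefore compared between libraries for a gene and not between genes. For Csf2rb and Csf2rb2 their ratio is also compared between libraries.

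The libraries held 11175843 to 21167602 reads, and 3 reads, taken as the lower limit of detection, came to 0.142 to 0.268 RPM, which covers counting error only. All 10 monocyte and macrophage markers of the fixed list reached 1 RPM in every group. Several libraries stood apart. KC library 3 held a summed level of 5 Kupffer cell markers of 5714 RPM against 16041 to 18040.4 RPM in the other 3, with the highest hepatocyte and sinusoidal endothelial sums of its group. Spleen Ly6C-low KO libraries 1 and 2 held 42033 and 23735 RPM of 9 neutrophil markers against 4526 and 3560 RPM in libraries 3 and 4 and 1104 to 2488 RPM in WT. In spleen Ly6C-hi cells that sum was 31667 to 33965 RPM in WT and 34020 to 59894 RPM in KO. Liver Ly6C-hi KO library 1 differed from the other 2 of its group by a chi-square per gene of 205 and 211, where those 2 differed by 24.9, and held 3876 RPM of the 10 monocyte and macrophage markers against 6503 and 6526 RPM, all below the 8362 to 9565 RPM of WT. In the liver, Xist did not pass 0.154 RPM in any of the 6 KO libraries of the Ly6C subsets, whose reads of 4 Y-linked genes summed to 150 to 291 RPM, while the 6 WT libraries had Xist at 321 to 539 RPM, so that genotype and sex of the donor mice cannot be told apart there. WT liver libraries 2 and 3 of both subsets also had Y-linked sums of 28.95 to 52.0 RPM, and in the spleen only Ly6C-low KO library 2 was without a level of Xist like the rest (0.781 RPM). Organ and sex therefore cannot be told apart between the KO Ly6C-hi cells of liver and spleen, nor cell type and sex between KO liver Ly6C-low cells and KCs, whose Xist was 647 to 949 RPM. In KO Ly6C-low cells the organs differ in sex in all spleen libraries but 1, and the interactions by organ use the same libraries.

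**Figure D1:**
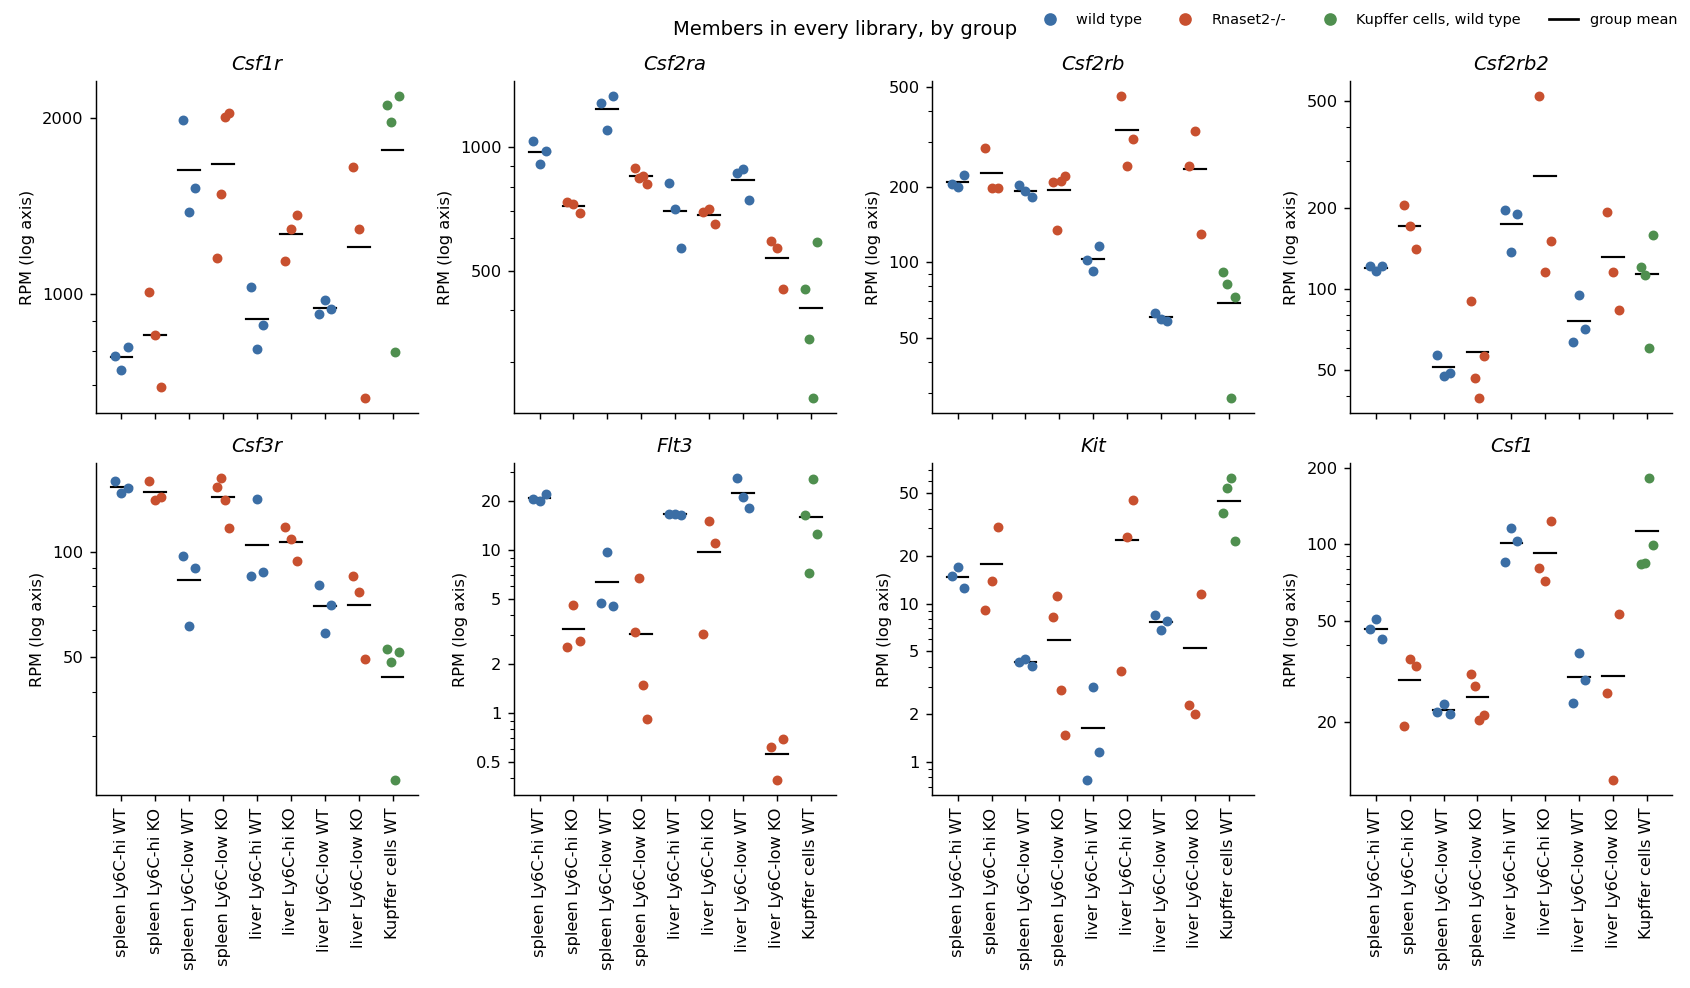
RPM of each gene on a log axis in the 29 libraries (points), by group, with the group mean as a bar. Flt3 spans the widest range of group means, from 0.565 RPM in liver Ly6C-low KO cells to 22.4 RPM in their WT counterpart, and Csf1r the narrowest, from 779 to 1761 RPM.

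The members differed in how far their levels ranged over the 9 groups. The highest group mean exceeded the lowest by 39.6-fold for Flt3 and 27.1-fold for Kit, by 5.59-fold for Csf2rb, 5.14-fold for Csf2rb2 and 5.04-fold for Csf1, and by 3.47-fold for Csf3r, 3.05-fold for Csf2ra and 2.26-fold for Csf1r. When groups were put in order of their mean, most neighbours were not separated by their libraries: of the 8 steps between neighbours, the ranges were apart in 4 for Csf2ra, in 2 each for Csf2rb, Flt3 and Kit, in 1 each for Csf1r, Csf3r and Csf1, and in 0 for Csf2rb2. These counts use unscaled RPM and were not made for other genes, so how usual they are in the whole table is not known.

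Comparisons were tested with limma on log2(scaled RPM + 1), and a gene was called at a Benjamini-Hochberg adjusted p below 0.05 over all genes tested and a change of more than 1.5-fold. In KO against WT cells, 2 of 8 members were called in spleen Ly6C-hi cells (Csf2rb2 up, Flt3 down), where 22.2% of all tested genes were called. In spleen Ly6C-low cells 1 was called (Csf3r up), against 8.35% of all genes. In liver Ly6C-hi cells 2 were called (Csf2rb and Kit up), against 30.6%, and in liver Ly6C-low cells 3 were called (Csf2rb up, Csf2ra and Flt3 down), against 42.7%. Csf1r and Csf1 were called in none of these 4 comparisons. Each count of members is near the share of all genes.

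**Figure D2:**
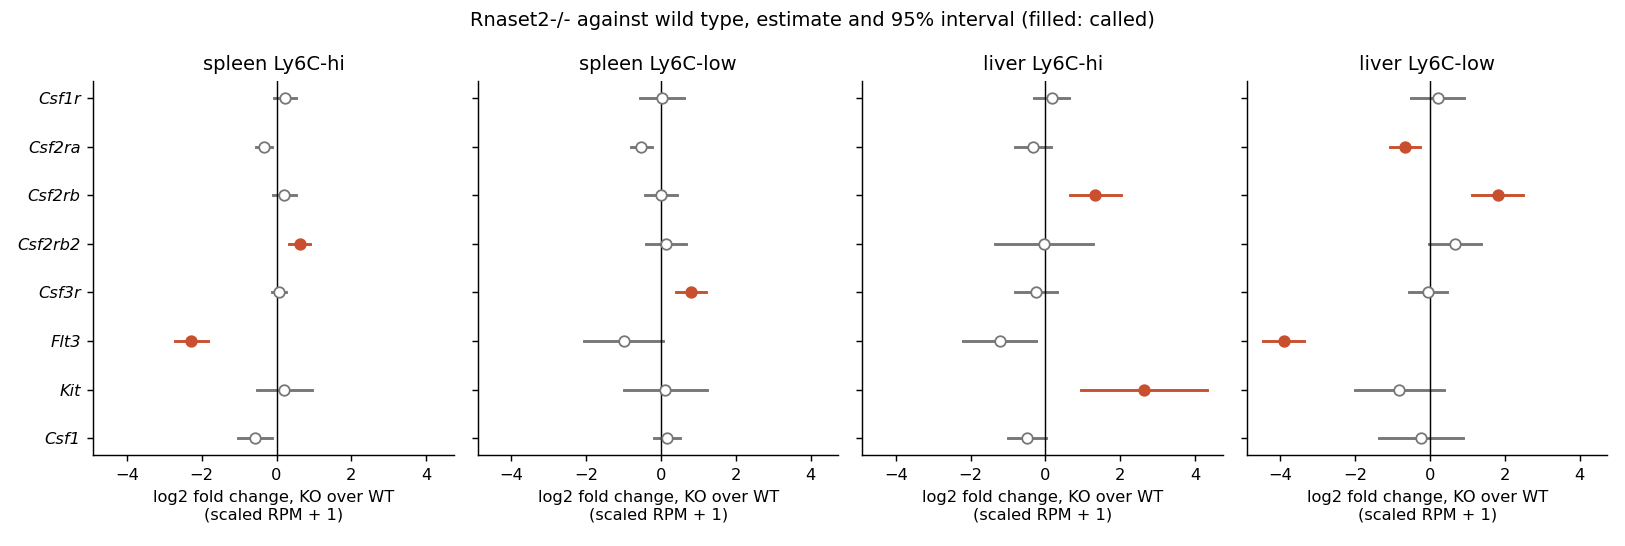
Log2 fold change of each gene, KO over WT, with its 95% interval, in the 4 genotype comparisons (filled points: called). The estimates for Flt3 lie below 0 in all 4 panels, at -2.27, -0.998, -1.23 and -3.90, and those for Csf2rb lie above 1 in the 2 liver panels only.

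Members were also compared between subsets and organs, and the counts were not tested against each other. The WT counts below were lower in 1 fit of all 29 libraries, as given with the dependence on processing. Ly6C-low against Ly6C-hi cells differed in 6 of 8 members in WT spleen (33.6% of all genes called) and in 4 in WT liver (10.1%). In KO mice, 2 members were called in the spleen (28.1%) and 1 in the liver (17%). Liver against spleen differed in 4 members among WT Ly6C-hi cells (37.8%), 5 among WT Ly6C-low cells (34.1%), 1 among KO Ly6C-hi cells (28.1%) and 3 among KO Ly6C-low cells (36.1%). KCs differed from WT liver Ly6C-low cells in 5 members (50%) and KO liver Ly6C-low cells from KCs in 6 (45.6%). Replicate numbers paired the libraries in the KO liver comparison of subsets, as described with the processing, and with the replicate block 3 members (Csf1, Flt3 and Kit, all lower in Ly6C-low cells) were called there in place of 1. With that block 28.8% of all genes were called there.

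Whether the effect of genotype differed between subsets or organs was tested as an interaction. By subset, 1 member was called in the spleen (Csf3r; 14.7% of all genes) and 2 in the liver (Flt3 and Kit; 10.3%). By organ, 3 were called in Ly6C-low cells (Csf2rb, Csf3r and Flt3; 26.8%) and 1 in Ly6C-hi cells (Csf2rb; 33.5%).

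**Figure D3:**
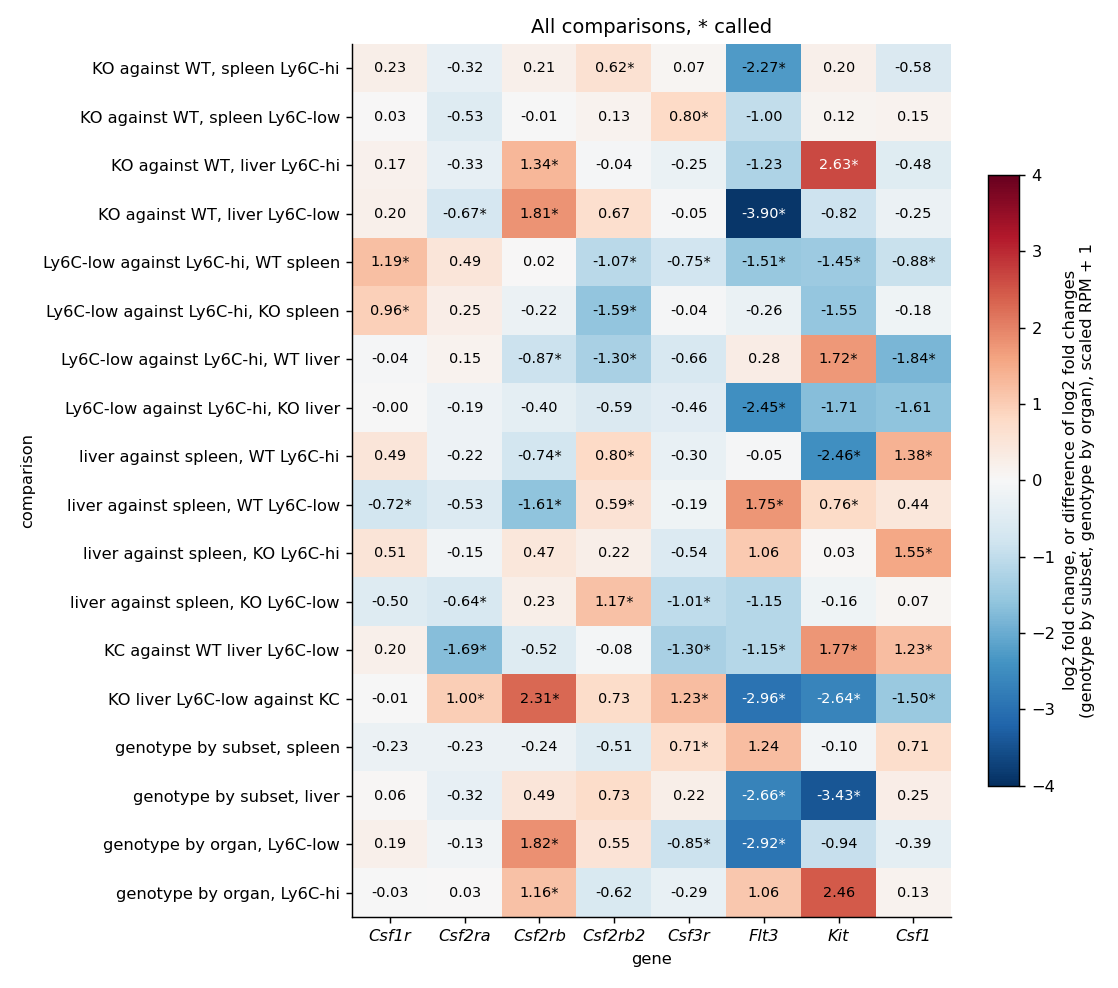
Log2 fold change of each gene in all 18 comparisons, or, for the 4 interactions in the lowest rows, the difference between 2 such changes (asterisk: called). Csf1r, with 3 asterisks, and Csf2ra, with 4, carry the fewest asterisks, while Flt3 shows the largest fall, -3.90 in liver Ly6C-low cells.

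Csf1r was called between the subsets of the spleen and in none of the genotype comparisons. In WT spleen it stood at 783, 743 and 812 RPM in Ly6C-hi cells and at 1982, 1380 and 1519 RPM in Ly6C-low cells, with no overlap, a log2 difference of 1.19 (95% interval 0.93 to 1.46, adjusted p = 1.7e-05). In KO spleen the log2 difference was 0.96 (adjusted p = 0.022), and that call was lost without Ly6C-hi KO library 2 (adjusted p = 0.063) or 3 (0.095), or without Ly6C-low KO library 3 (0.052). The monocyte and macrophage sum ran the same way, at 5082 to 5199 RPM in WT Ly6C-hi and 9567 to 11966 RPM in WT Ly6C-low cells. In KO it was 5371 to 5948 and 10095 to 16957 RPM. The neutrophil, NK cell and T cell sums were lower in the WT Ly6C-low cells, as given with the libraries and with Csf2rb2. The part of these sums in the Csf1r level was not tested. In the liver the subsets were not called apart: the WT difference was -0.04 (interval -0.40 to 0.32). WT liver Ly6C-low cells, at 923 to 977 RPM, lay below WT spleen Ly6C-low cells (log2 difference -0.72, adjusted p = 0.0040). KCs held 2104, 1967, 795 and 2178 RPM, and the low value is that of library 3, which was also low in Kupffer cell markers. KCs and WT liver Ly6C-low cells were not called apart (log2 difference 0.20 with scaling, interval -0.53 to 0.92, adjusted p = 0.63). Without scaling the median of all genes was 0.55 in that comparison. Between genotypes the intervals of the log2 difference were -0.06 to 0.52 in spleen Ly6C-hi cells, -0.55 to 0.60 in spleen Ly6C-low cells, -0.29 to 0.63 in liver Ly6C-hi cells and -0.50 to 0.90 in liver Ly6C-low cells. In liver Ly6C-hi cells the KO libraries, at 1140, 1294 and 1363 RPM, all exceeded the WT libraries, at 1028, 807 and 884 RPM. The log2 difference there was 0.17 with scaling (adjusted p = 0.56) and 0.48 without it (adjusted p = 0.090), where the median of all genes was 0.31.

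Csf1, the ligand of CSF1R, was highest in liver Ly6C-hi cells and KCs. It measured 85.4, 116 and 103 RPM in WT liver Ly6C-hi cells and 23.8, 37.4 and 29.3 RPM in WT liver Ly6C-low cells, a log2 difference of -1.84 (adjusted p = 0.00037). In WT spleen the same step between subsets was smaller, at -0.88 (adjusted p = 0.00010), from 42.5 to 50.7 RPM down to 21.5 to 23.6 RPM. Liver exceeded spleen in Ly6C-hi cells of both genotypes, by 1.38 in WT (adjusted p = 4.2e-05) and 1.55 in KO (adjusted p = 0.0062). In Ly6C-hi cells the sinusoidal endothelial sum was 5.06 to 6.80 RPM in WT spleen and 48.3 to 89.3 RPM in WT liver. In KO it was 1.13 to 4.08 and 337 to 2385 RPM. The neutrophil sum ran the other way, at 31667 to 33965 and 347 to 2473 RPM in WT. From WT liver Ly6C-hi to Ly6C-low cells the neutrophil sum fell to 6.95 to 12.55 RPM and the endothelial sum rose to 133 to 348 RPM. The part of these sums was not tested. KCs exceeded WT liver Ly6C-low cells by 1.23 (adjusted p = 0.0039), at 83.8, 84.0, 182 and 99.6 RPM, where the highest value again belongs to library 3, whose sinusoidal endothelial markers summed to 7073 RPM against 3380 to 4795 RPM in the others. The part of these cells in the Csf1 level was not tested. KO liver Ly6C-low cells lay below KCs (log2 difference -1.499, adjusted p = 0.027), but the call was lost without KC library 3 (adjusted p = 0.065) or 4 (0.056), or KO library 1 (0.054) or 2 (0.11), as well as with no filter (0.065) and with edgeR (0.062). Between genotypes, Csf1 in spleen Ly6C-hi cells was 42.5 to 50.7 RPM in WT and 19.3, 35.3 and 33.3 RPM in KO, without overlap. The log2 difference of -0.58 reached an adjusted p of 0.048 but not 1.5-fold, and it passed both limits without KO library 2 (-0.75) or 3 (-0.68), with a pseudocount of 0.1 (-0.59, adjusted p = 0.049) and without scaling (-0.69, adjusted p = 0.020).

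Csf2ra, the ligand-binding chain of the GM-CSF receptor, was lower in KO than in WT in the estimates of all 4 genotype comparisons, and passed both limits in 1. In liver Ly6C-low cells it measured 865, 883 and 742 RPM in WT and 591, 569 and 450 RPM in KO, without overlap, a log2 difference of -0.67 (95% interval -1.08 to -0.27, adjusted p = 0.015). The call was lost without WT library 2 (adjusted p = 0.056), and without KO library 3 the difference was -0.57, under 1.5-fold. The Kupffer cell markers, whose sum was 92.2 to 122 RPM in WT and 5669 to 10057 RPM in KO, moved in the same libraries, and KCs themselves were lowest of all groups in Csf2ra. Their part in the fall was not tested. In spleen Ly6C-low cells the 3 WT libraries held 1101 to 1334 RPM and the 4 KO libraries 812 to 891 RPM, and in spleen Ly6C-hi cells the WT libraries held 909 to 1038 RPM and the KO libraries 690 to 736 RPM. These groups did not overlap either, but the log2 differences of -0.53 (adjusted p = 0.033) and -0.32 (adjusted p = 0.023) were under 1.5-fold. Liver Ly6C-hi cells overlapped, at 567 to 819 and 650 to 705 RPM. KCs had the lowest level of all groups, 452, 340, 245 and 586 RPM, and lay below WT liver Ly6C-low cells (log2 difference -1.69, adjusted p = 0.00039). Over the alternatives this difference ran from -1.91 to -1.10. The monocyte and macrophage sum was 1591 to 3067 RPM in KCs and 9966 to 11048 RPM in WT liver Ly6C-low cells. The hepatocyte, sinusoidal endothelial, B cell and T cell sums were higher in KCs, as given with the other ligands. The part of these sums was not tested. KO liver Ly6C-low cells lay below spleen KO Ly6C-low cells (log2 difference -0.64, adjusted p = 0.0087; -0.54 without liver KO library 3) and above KCs by 0.996 (adjusted p = 0.019). The latter call was lost without KC library 2 (adjusted p = 0.051) or KO library 2 (0.053).

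Csf2rb and Csf2rb2 are near copies of each other, which bears on how far their reads can be told apart. Their coding sequences in GENCODE vM21 align over 2628 bases, of which 95.2% are identical, with a longest identical run of 242 bases. The first 120 coding bases of each are printed to let the likeness be seen, with the 4 positions at which they differ in capitals.
Csf2rb: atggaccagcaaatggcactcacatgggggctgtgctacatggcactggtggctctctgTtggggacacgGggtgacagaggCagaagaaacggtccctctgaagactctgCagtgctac
Csf2rb2: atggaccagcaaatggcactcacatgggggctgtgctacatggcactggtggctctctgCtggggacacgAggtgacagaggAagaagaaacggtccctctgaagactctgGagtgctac
An amplicon placed within an identical run would read both genes, so how far reads of one were counted for the other was not tested and both levels are uncertain to that extent. The levels of the 2 genes did not keep a fixed ratio: the share of Csf2rb2 in their summed RPM was 19.9% to 21.9% in WT spleen Ly6C-low cells and 59.8% to 65.8% in WT liver Ly6C-hi cells.

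**Figure D4:**
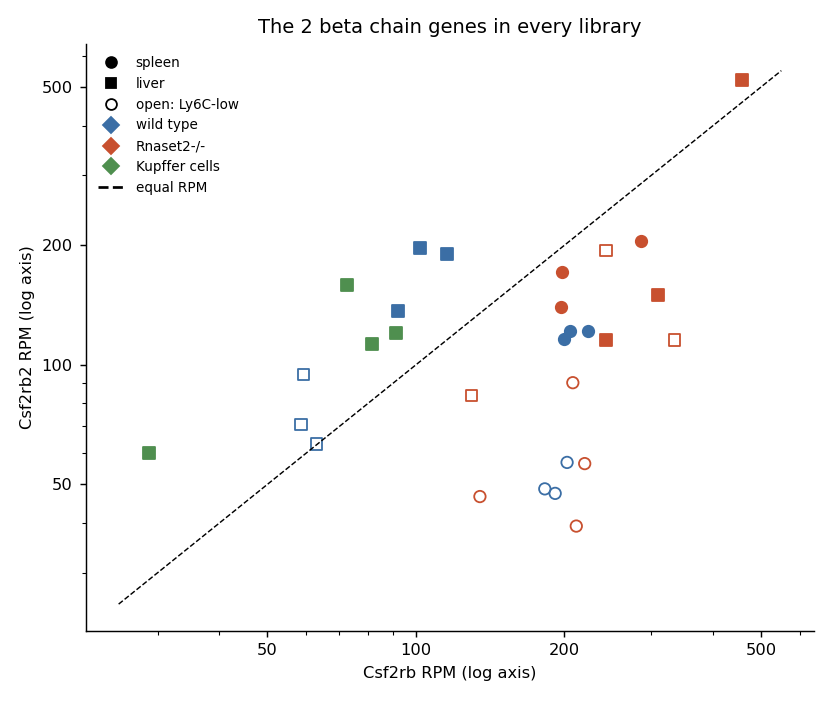
Csf2rb2 against Csf2rb RPM on log axes in the 29 libraries (points), with the line of equal RPM. The line is a guide to how their ratio differs between libraries and does not rank the genes. All 10 WT liver libraries lie on or above the line and all 13 spleen libraries below it, while 5 of 6 KO liver libraries lie below it.

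Csf2rb, the common beta chain, rose in the liver of KO mice. WT liver Ly6C-low cells held 63.0, 59.2 and 58.5 RPM and KO cells 243, 334 and 130 RPM, so that every KO library exceeded every WT library, with a log2 difference of 1.81 (95% interval 1.13 to 2.48, adjusted p = 0.0018). Among liver Ly6C-hi cells the levels were 102, 91.9 and 116 RPM in WT and 459, 243 and 309 RPM in KO, again without overlap, a log2 difference of 1.34 (adjusted p = 0.012; 0.051 without WT library 1). In the spleen the genotypes were alike in range, at 200 to 223 RPM in WT and 197 to 286 RPM in KO Ly6C-hi cells, and at 182 to 202 and 135 to 220 RPM in Ly6C-low cells. The difference between organs in the genotype effect was 1.82 in Ly6C-low cells (adjusted p = 0.0025) and 1.16 in Ly6C-hi cells (adjusted p = 0.021). This call in Ly6C-hi cells was lost without spleen Ly6C-hi WT library 3, KO library 2 or KO library 3 (adjusted p = 0.052 to 0.055). In WT mice the liver lay below the spleen, with log2 differences of -1.61 in Ly6C-low cells (adjusted p = 6.2e-06) and -0.74 in Ly6C-hi cells (adjusted p = 0.0011), while KO cells of the 2 organs overlapped. Within WT liver, Ly6C-low cells lay below Ly6C-hi cells (log2 difference -0.87, adjusted p = 0.0076). The neutrophil sum ran the same way in these WT comparisons, and its part was not tested. In Ly6C-low cells it was 1104 to 2488 RPM in spleen and 6.95 to 12.55 RPM in liver. In Ly6C-hi cells it was 31667 to 33965 and 347 to 2473 RPM. The sinusoidal endothelial sum ran the other way, as given with Csf1 and Kit. KCs, at 91.3, 81.7, 28.8 and 72.5 RPM, were near WT liver Ly6C-low cells, and KO liver Ly6C-low cells exceeded KCs by 2.31 (adjusted p = 0.0019). In the liver the rise went with markers of several other cell types. The sum of 4 B cell markers was 19.0 to 20.5 RPM in WT and 92.1 to 278 RPM in KO Ly6C-hi cells, and 25.7 to 29.98 and 103 to 370 RPM in Ly6C-low cells. The 6 T cell markers summed to 11.4 to 31.0 RPM in WT and 164 to 375 RPM in KO Ly6C-hi cells, and to 15.1 to 33.6 and 37.3 to 123 RPM in Ly6C-low cells. The 6 erythroid markers summed to 0.463 to 3.92 RPM in WT and 55.6 to 256 RPM in KO Ly6C-hi cells, and to 1.08 to 5.84 and 57.4 to 155 RPM in Ly6C-low cells. The 5 Kupffer cell markers summed to 1.79 to 2.62 RPM in WT and 164 to 373 RPM in KO Ly6C-hi cells, and to 92.2 to 122 and 5669 to 10057 RPM in Ly6C-low cells. The sinusoidal endothelial and NK cell sums were also higher in KO Ly6C-hi cells, as given with Kit. So was the mast cell and basophil sum, except in KO library 1, which lay within the WT range. Ly6C-hi KO library 1, the highest in Csf2rb, was also the highest of its group in T cell, erythroid and Kupffer cell markers. It was the lowest in B cell, NK cell, sinusoidal endothelial and mast cell and basophil markers. The part of these cells in the Csf2rb level was not tested.

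Csf2rb2, the IL-3-specific beta chain, was higher in Ly6C-hi than in Ly6C-low cells in 3 of the 4 comparisons of subsets. WT spleen Ly6C-hi cells held 121, 116 and 122 RPM and Ly6C-low cells 56.8, 47.5 and 48.7 RPM, a log2 difference of -1.07 (adjusted p = 6.4e-06). The neutrophil, myeloid progenitor, NK cell, T cell and dendritic cell sums were all higher in these Ly6C-hi libraries. The NK cell sum was at 439 to 479 against 73.0 to 119 RPM and the T cell sum at 177 to 189 against 22.3 to 30.7 RPM, and their part was not tested. The step was -1.59 in KO spleen (adjusted p = 0.0031) and -1.30 in WT liver (adjusted p = 0.0051), but in KO liver the groups overlapped. KO spleen Ly6C-hi cells, at 205, 171 and 140 RPM, all exceeded their WT counterparts, a log2 difference of 0.62 (adjusted p = 0.0042), which was 0.50 and under 1.5-fold without KO library 1, and likewise without scaling. In these KO libraries the neutrophil and myeloid progenitor marker sums were higher than in WT and the dendritic, NK, T, B cell and erythroid sums lower, as given with the libraries and with Flt3, and their part in the Csf2rb2 level was not tested. In liver Ly6C-hi cells the outcome rested on KO library 1, which held 521 RPM beside 115 and 150 RPM in the other 2 KO libraries and 197, 137 and 190 RPM in WT. The log2 difference was -0.04 with all libraries and -0.76 (adjusted p = 0.017) without that library. In liver Ly6C-low cells the KO libraries held 194, 115 and 83.7 RPM and the WT libraries 63.2, 94.5 and 70.7 RPM (log2 difference 0.67, adjusted p = 0.11), which became a call without KO library 3 (0.93, adjusted p = 0.037). Liver exceeded spleen by 0.80 in WT Ly6C-hi cells (adjusted p = 0.0026), by 0.59 in WT Ly6C-low cells (adjusted p = 0.021) and by 1.17 in KO Ly6C-low cells (adjusted p = 0.022). Without scaling the WT differences were 0.52 and 0.55, under 1.5-fold. The call in WT Ly6C-low cells was lost without library 2 or 3 of either organ (adjusted p = 0.052 to 0.079), and that in KO Ly6C-low cells without spleen library 2 or 3 or liver library 1 (adjusted p = 0.056 to 0.060).

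Csf3r, the G-CSF receptor, rose in KO spleen Ly6C-low cells. WT libraries held 96.9, 61.6 and 90.05 RPM and KO libraries 152, 162, 140 and 117 RPM, without overlap, a log2 difference of 0.80 (95% interval 0.41 to 1.19, adjusted p = 0.026). The call was lost without WT library 2 (adjusted p = 0.080) or 3 (0.087) or KO library 2 (0.070). The rise went with the neutrophil markers, whose sums in these KO libraries are given above. Other sums also moved there. That of the myeloid progenitor markers was 51.3 to 89.0 RPM in WT and 90.9 to 1210.1 RPM in KO. For Kupffer cell markers it was 26.7 to 50.1 and 88.4 to 440.4 RPM, and for NK cell markers 73.0 to 119 and 5.35 to 35.8 RPM. KO library 1 held 955 RPM of erythroid markers against 39.8 to 99.4 RPM in WT. In KO libraries 3 and 4 alone, which held the least of them and were set apart after seeing the data, the difference was 0.71 (adjusted p = 0.039). The neutrophil sums there were still above those of WT, and the part of any of these cells in the Csf3r level was not tested. In spleen Ly6C-hi cells Csf3r was 147 to 159 RPM in WT and 140 to 159 RPM in KO, and the effect of genotype differed between the subsets by 0.71 (adjusted p = 0.033). That call was lost without any 1 of 7 of the 13 libraries (Ly6C-hi WT 1, 2 or 3, Ly6C-hi KO 2 or 3, Ly6C-low WT 2, Ly6C-low KO 2), at adjusted p = 0.051 to 0.082. In the liver no genotype difference was called, with intervals of -0.80 to 0.30 in Ly6C-hi and -0.56 to 0.45 in Ly6C-low cells. The difference between organs in Ly6C-low cells was -0.85 (adjusted p = 0.038). It was lost as a call without any 1 of 7 of the 13 libraries (spleen WT 2, KO 2 or KO 3, liver WT 1 or 3, liver KO 2 or 3; adjusted p = 0.053 to 0.093). Within WT spleen, Ly6C-low cells lay below Ly6C-hi cells (log2 difference -0.75, adjusted p = 0.0018; -0.55 without Ly6C-low library 2), with neutrophil sums of 1104 to 2488 RPM against 31667 to 33965 RPM, whose part was not tested. KO liver Ly6C-low cells lay below their spleen counterparts (log2 difference -1.01, adjusted p = 0.0043), with neutrophil sums of 6.81 to 26.5 RPM against 3560 to 42033 RPM, whose part was not tested. KCs were lowest, at 52.9, 48.5, 22.4 and 51.8 RPM, below WT liver Ly6C-low cells (log2 difference -1.30, adjusted p = 0.0030) and below KO liver Ly6C-low cells, which exceeded them by 1.23 (adjusted p = 0.011). Over the alternatives the difference from WT liver Ly6C-low cells ran from -1.42 to -0.72. The monocyte and macrophage sum of KCs was also below that of WT liver Ly6C-low cells, as given with Csf2ra. Its part was not tested.

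Flt3, the receptor of FLT3 ligand, showed the largest change with genotype among the 8 members. WT liver Ly6C-low cells held 27.6, 21.4 and 18.1 RPM and KO cells 0.616, 0.389 and 0.689 RPM, which rest on 8, 5 and 9 reads. The log2 difference of scaled RPM + 1 was -3.90 (95% interval -4.46 to -3.35, adjusted p = 2.3e-05), a scale that understates the fall of a gene this low. In spleen Ly6C-hi cells the 3 WT libraries held 20.5, 19.98 and 22.2 RPM and the KO libraries 2.55, 4.61 and 2.75 RPM, a log2 difference of -2.27 (interval -2.72 to -1.83, adjusted p = 2.1e-05). Both calls held under every alternative in which the gene was tested, no filter on low values among them. All liver Ly6C-low KO libraries were under 1 RPM, so in comparisons with that group Flt3 passed this filter only through the other libraries. Filter and test are thus not independent there. In the genotype comparison of liver Ly6C-low cells Flt3 was not tested when a WT library was left out, so those alternatives could not have lost the call. In liver Ly6C-hi cells KO libraries held 40, 195 and 143 reads of Flt3, or 3.07 to 15.1 RPM, beside 16.4 to 16.7 RPM in WT, all below but spread (log2 difference -1.23, adjusted p = 0.061), and the comparison passed both limits without KO library 1 (-0.69, adjusted p = 0.033) or 2 (-1.59, adjusted p = 0.037). In spleen Ly6C-low cells the groups overlapped, at 4.75, 9.81 and 4.57 RPM in WT and 3.13, 6.74, 1.49 and 0.916 RPM in KO (log2 difference -0.998, adjusted p = 0.19). With KO libraries 3 and 4 alone, chosen after seeing the data, the difference there was -1.64 (adjusted p = 0.0086). The genotype effect in Ly6C-low cells was larger in liver than in spleen by -2.92 (adjusted p = 0.0026), and within the liver it was larger in Ly6C-low than in Ly6C-hi cells by -2.66 (adjusted p = 0.0079).

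The fall of Flt3 in spleen Ly6C-hi cells went with that of the dendritic cell markers. All 8 markers of that list fell, and their sum was 189 to 194 RPM in WT and 31.96 to 42.4 RPM in KO. Other lists moved there too. The sum of the NK cell markers was 439 to 479 RPM in WT and 19.2 to 51.7 RPM in KO, and that of the T cell markers 177 to 189 and 11.96 to 28.8 RPM. That of the erythroid markers was 105 to 109 and 2.69 to 9.65 RPM, and that of the B cell markers 33.3 to 38.7 and 15.8 to 21.97 RPM. Myeloid progenitor markers summed to 364 to 387 and 1087 to 2599 RPM, while the neutrophil sums were higher, as given with the libraries. The part of any of these cells in the Flt3 level was not tested. In liver Ly6C-low cells the list moved in both directions: 4 of 8 markers fell and 2 rose, where 22.5% of all tested genes were called lower and 20.2% higher. The sums were 416 to 581 RPM in WT and 173 to 298 RPM in KO. Cd209a, a lectin of monocyte-derived and type 2 dendritic cells, was at 102 to 159 RPM in WT and 0.077 to 0.545 RPM in KO, whereas Xcr1, the chemokine receptor of type 1 dendritic cells, was at 7.23 to 11.2 RPM in WT and 65.6 to 120 RPM in KO. Fewer cells that carry Flt3 and less Flt3 RNA per cell cannot be told apart in bulk libraries, here or for any other member. The sum of the 5 Kupffer cell markers was higher in the same KO libraries, at 5669 to 10057 RPM against 92.2 to 122 RPM in WT. The myeloid progenitor sum was 58.3 to 70.9 RPM in WT and 14.2 to 26.4 RPM in KO, and the NK cell sum 21.3 to 25.4 and 5.68 to 18.6 RPM. The B cell, T cell and erythroid sums were higher in KO, as given with Csf2rb. The part of these cells was not tested. KCs themselves held 16.4, 7.24, 27.3 and 12.6 RPM of Flt3 with 379 to 602 RPM of the dendritic cell markers, and library 3 was highest in both. Among wild types, Ly6C-low cells of the spleen lay below Ly6C-hi cells (log2 difference -1.51, adjusted p = 0.00043), and liver exceeded spleen in Ly6C-low cells by 1.75 (adjusted p = 0.00070). The dendritic cell sum ran the same way, at 189 to 194 RPM in spleen Ly6C-hi, 62.7 to 85.6 RPM in spleen Ly6C-low and 416 to 581 RPM in liver Ly6C-low WT cells. Between the spleen subsets the myeloid progenitor sum was 364 to 387 against 51.3 to 89.0 RPM. Their part was not tested. In KO liver, Ly6C-low cells lay below Ly6C-hi cells (log2 difference -2.45, adjusted p = 0.016), a call lost without Ly6C-low KO library 2 (adjusted p = 0.066) or 3 (0.052), and Flt3 was not tested there when a Ly6C-hi library was left out. With the replicate block its adjusted p was 0.0045. KCs lay below WT liver Ly6C-low cells (log2 difference -1.15, adjusted p = 0.019; 0.058 without WT library 1) and above KO liver Ly6C-low cells, which were lower (log2 difference -2.96, adjusted p = 0.00043).

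**Figure D5:**
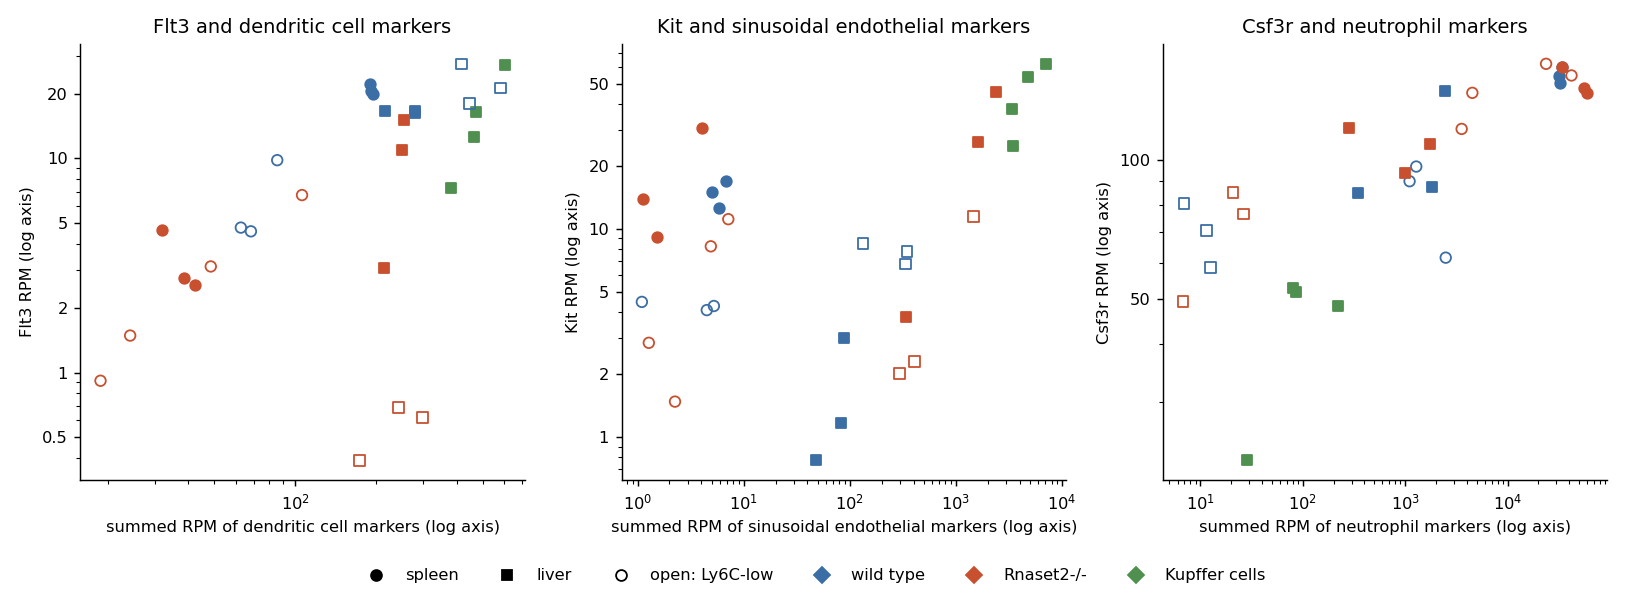
Flt3, Kit and Csf3r RPM against the summed RPM of dendritic cell, sinusoidal endothelial and neutrophil markers in the 29 libraries (points, log axes). The 3 liver Ly6C-low KO libraries stand off the Flt3 panel, with under 0.7 RPM of Flt3 at 173 to 298 RPM of dendritic cell markers, and KC library 3 is the highest in both Kit and the endothelial markers.

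Kit, the receptor of stem cell factor, was lowest in WT liver Ly6C-hi cells and highest in KCs. WT liver Ly6C-hi cells held 0.772, 3.004 and 1.16 RPM and KO cells 3.76, 26.3 and 45.4 RPM, a log2 difference of 2.63 (95% interval 0.95 to 4.30, adjusted p = 0.029). The KO libraries differed widely among themselves, and the call was lost without WT library 1 (adjusted p = 0.10) or 3 (0.096), or KO library 2 (0.093) or 3 (0.085). Sinusoidal endothelial markers rose in the same libraries in the same order, with sums over 7 genes of 337, 1633 and 2385 RPM in KO against 48.3 to 89.3 RPM in WT. The 10 mast cell and basophil markers summed to 22.1, 94.0 and 134 RPM in KO and 12.9 to 25.5 RPM in WT, and the 8 NK cell markers to 55.4, 245 and 351 RPM in KO and 22.4 to 33.5 RPM in WT. The B cell, T cell, erythroid and Kupffer cell markers were higher in these KO libraries as well, as given with Csf2rb. The part of all these cells in the Kit level was not tested. In liver Ly6C-low cells Kit was 8.53, 6.80 and 7.79 RPM in WT and 2.31, 2.02 and 11.5 RPM in KO, where library 3 had the highest endothelial sum, 1477 RPM against 409 and 294 RPM. The log2 difference was -0.82 (adjusted p = 0.23) with that library and -1.50 (adjusted p = 0.0031) without it. The effect of genotype differed between the liver subsets by -3.43 (adjusted p = 0.047), and this call held only when the library left out was Ly6C-hi KO 1 or Ly6C-low KO 3, and was lost without any of the other 10 (adjusted p = 0.056 to 0.11).

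In the WT spleen Kit differed between the subsets. WT Ly6C-hi cells held 15.1, 17.0 and 12.6 RPM and Ly6C-low cells 4.26, 4.46 and 4.07 RPM, a log2 difference of -1.45 (adjusted p = 2.8e-05). The myeloid progenitor sum was 364 to 387 RPM in the former and 51.3 to 89.0 RPM in the latter, and the mast cell and basophil sum 107 to 113 and 28.4 to 53.1 RPM, whose part was not tested. KO Ly6C-hi cells held 9.12, 13.9 and 30.7 RPM, and library 3, the highest, also led in the sum of 8 myeloid progenitor markers, at 2599 RPM against 1091 and 1087 RPM. KO Ly6C-low cells held 8.25, 11.1, 2.84 and 1.48 RPM, with the higher values in libraries 1 and 2. Neither genotype comparison of the spleen was called, with intervals of -0.53 to 0.94 in Ly6C-hi and -0.99 to 1.23 in Ly6C-low cells. In WT mice the direction between subsets turned with the organ: in the liver Ly6C-low cells exceeded Ly6C-hi cells by 1.72 (adjusted p = 0.0095; 0.058 without Ly6C-low library 3). Liver lay below spleen in WT Ly6C-hi cells (log2 difference -2.46, adjusted p = 0.00013) and above it in WT Ly6C-low cells by 0.76 (adjusted p = 0.0082; 0.35 in 1 fit of all libraries). In the Ly6C-hi cells the myeloid progenitor sum was 20.2 to 63.96 RPM in liver and 364 to 387 RPM in spleen, and the mast cell and basophil sum 12.9 to 25.5 and 107 to 113 RPM, whose part was not tested. The sinusoidal endothelial sum was 133 to 348 RPM in WT liver Ly6C-low cells. It was 48.3 to 89.3 RPM in WT liver Ly6C-hi and 1.10 to 5.24 RPM in WT spleen Ly6C-low cells. The mast cell and basophil sum ran the other way, at 2.485 to 9.586 RPM in WT liver Ly6C-low cells. The part of these sums was not tested either. KCs held 37.7, 53.8, 62.2 and 24.99 RPM, above WT liver Ly6C-low cells by 1.77 (adjusted p = 0.00043), and KO liver Ly6C-low cells lay below KCs (log2 difference -2.64, adjusted p = 0.0035). KCs also held 3380 to 7073 RPM of the sinusoidal endothelial markers against 133 to 348 RPM in WT liver Ly6C-low cells.

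Of the other ligands of these receptors, only Flt3l, which encodes FLT3 ligand, was read at a steady level, 18.3 to 48.5 RPM in every library, and it was called in none of the genotype comparisons. Il5 was at 0 reads in all 29 libraries, and Il3 and Csf3 did not pass 0.447 RPM in any. Csf2, Il34 and Kitl, which encode GM-CSF, the second ligand of CSF1R and stem cell factor, were read mainly in KCs, at 0.582 to 13.7, 1.26 to 5.24 and 1.17 to 2.54 RPM. Their log2 levels there exceeded those of WT liver Ly6C-low cells by 2.17, 1.70 and 1.15. A gene needed 1 RPM in 3 libraries to be compared, so genes this low can enter through KCs alone. These differences are therefore given as a description, without p-values. The marker sums of KCs were also higher than those of WT liver Ly6C-low cells for sinusoidal endothelial cells (3380 to 7073 against 133 to 348 RPM), hepatocytes (1167 to 3980 against 46.2 to 102 RPM), B cells (423 to 801 against 25.7 to 29.98 RPM) and T cells (189.6 to 305 against 15.1 to 33.6 RPM), and their part in the ligand levels was not tested. Il3ra, the IL-3-binding partner of the beta chains, was at 9.77 to 18.3 RPM in WT and 28.1 to 43.3 RPM in KO liver Ly6C-low cells, a log2 difference of 1.204 (adjusted p = 0.0080), in the group where Csf2rb was also higher. Il5ra stayed at or below 1.52 RPM in all groups but KCs.

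The rest of the pathway, 47 genes of which 46 were in the table, moved in both directions with genotype. In spleen Ly6C-hi cells, 4 of 36 tested genes rose and 6 fell, where 1016 of all 10398 tested genes rose and 1295 fell (22.2% called). In 1 fit of all libraries 2 rose and 3 fell, where 12.3% of all genes were called. In the main fit Gfi1 (1.43) and Cebpe (0.92), transcription factors of granulocyte development, rose most. Ccnd1, a cyclin (-1.81), and Cebpa, a factor of the early myeloid lineage (-1.36), fell most. In spleen Ly6C-low cells, where 4.05% of all genes rose and 4.3% fell, 4 of 37 rose (9 with DESeq2), led by the kinase gene Lyn (1.598) and the cytokine gene Osm (1.49), and 2 fell, Cebpa (-0.90) and Dusp6, a phosphatase that acts on ERK kinases (-0.80). With KO libraries 3 and 4 alone the counts there were 7 and 2 of 35, and with 1 library left out they ran from 0 (without WT library 3), 1 (WT library 2) and 2 (KO library 4) to 7 (without KO library 1) up and from 0 (without any of the WT libraries) to 3 (without KO library 3) down. The share of all genes called in either direction moved there too. It was 15.5% with DESeq2, 12.4% with KO libraries 3 and 4 alone, 1.42% without WT library 3 and 11% without KO library 1. Of 36 tested in liver Ly6C-hi cells, where 15.7% of all genes rose and 14.9% fell, 3 rose, led by Gfi1 (1.33) and Stat5b (0.90), and 5 fell, led by Osm (-3.57) and Pim1 (-2.96), both genes that STAT5 signals are known to induce. With 1 library left out the counts ran from 0 up and 3 down (without WT library 1 or 3) to 8 up and 6 down (without KO library 1), with 1 up without KO library 2, 5 up without WT library 2 and 2 up without KO library 3. Of all genes, 16.4% were called there without WT library 1, 17% without WT library 3 and 37.1% without KO library 1. In liver Ly6C-low cells, where 20.2% of all genes rose and 22.5% fell, 8 of 34 rose, led by Lyn (2.35) and Sos1, an exchange factor for RAS (1.79), and 9 fell (5 rose without WT library 1), led by Osm (-4.60) and Klf4, a transcription factor of monocytes (-4.18). Without WT library 1, 33.7% of all genes were called there. The median log2 difference of the pathway was -0.06, 0.06, 0.09 and 0.07 in these 4 comparisons, beside 0.01 over all tested genes in each.

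By list, to be read against 22.2%, 8.35%, 30.6% and 42.7% of all genes called in these comparisons, the signalling genes gave 2 up and 1 down of 18 in spleen Ly6C-hi cells, 3 up and 0 down in spleen Ly6C-low cells, 2 up and 1 down in liver Ly6C-hi cells and 6 up and 2 down in liver Ly6C-low cells. The induced targets gave 0 up and 3 down of 5, 1 up and 1 down of 6, 0 up and 2 down of 5, and 1 up and 3 down of 5 in the same order. The transcription factors gave 2 up and 2 down of 11, 0 up and 1 down of 11, 1 up and 2 down of 10, and 0 up and 4 down of 9. Cebpa, singled out after its values were seen, fell in all 4 comparisons, at -1.36, -0.90, -1.94 and -1.02 on the log2 scale. In spleen Ly6C-low cells that call was lost when any 1 WT library was left out.

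Over the 29 libraries, the genes whose log2 levels were most like those of a member were found by Pearson correlation among 9673 genes, as a description only, since the libraries share groups, organs and other cells. Csf1r was nearest to Tcf7l2 (r = 0.782), Ctsb (0.768) and Tpcn2 (0.750), the weakest of the 8 sets. Csf2ra was nearest to Ddx28 (0.942), Notch2 (0.886) and Cebpb (0.885), and Csf2rb to Syngr2 (0.906), Pirb (0.903) and Ltbr (0.888). Csf2rb2 was nearest to Amdhd2 (0.904), Ifi30 (0.895) and Tnfaip2 (0.885), and Csf3r to Rnf149 (0.890), Hist1h3a (0.888) and Ms4a6c (0.885). Flt3 was nearest to Icosl (0.884), Kmo (0.879) and Gpr183 (0.878), Kit to Bcl7a (0.902), Stap2 (0.883) and Arap3 (0.876), and Csf1 to Trip10 (0.837), Lynx1 (0.826) and Spib (0.820).

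Promoters of members called between genotypes are shown with the core motifs of transcription factor families known from myeloid cells. That of Csf2rb, which was also called, is not shown because no start was given for it. RefSeq starts on GRCm38.p6 were given for 6 of the 8 members, and the 250 bases before the start are printed here 5′ to 3′ on the strand of the gene for the 5 of these with a call. They lie at chr19:61228419-61228668 (Csf2ra, minus strand), chr15:78305722-78305971 (Csf2rb2, minus), chr4:126024409-126024658 (Csf3r, plus), chr5:147400490-147400739 (Flt3, minus) and chr5:75574737-75574986 (Kit, plus). Capitals mark any match, on either strand, to GAGGAA (a core bound by PU.1, the product of Spi1), TTNCNNAA (a C/EBP core), TGTGGT (known from RUNX factors) or AGATAA, which is known as the core of the sites of erythroid and mast cell factors of the GATA family.
Csf2ra: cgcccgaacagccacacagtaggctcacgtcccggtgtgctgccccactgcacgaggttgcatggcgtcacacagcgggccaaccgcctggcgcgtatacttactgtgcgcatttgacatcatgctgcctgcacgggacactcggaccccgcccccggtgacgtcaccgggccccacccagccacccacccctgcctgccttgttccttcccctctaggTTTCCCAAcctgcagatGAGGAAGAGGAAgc
Csf2rb2: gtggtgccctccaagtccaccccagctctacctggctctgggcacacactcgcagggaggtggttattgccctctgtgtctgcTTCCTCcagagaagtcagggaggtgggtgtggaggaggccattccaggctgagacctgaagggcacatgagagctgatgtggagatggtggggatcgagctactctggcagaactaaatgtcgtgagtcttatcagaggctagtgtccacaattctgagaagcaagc
Csf3r: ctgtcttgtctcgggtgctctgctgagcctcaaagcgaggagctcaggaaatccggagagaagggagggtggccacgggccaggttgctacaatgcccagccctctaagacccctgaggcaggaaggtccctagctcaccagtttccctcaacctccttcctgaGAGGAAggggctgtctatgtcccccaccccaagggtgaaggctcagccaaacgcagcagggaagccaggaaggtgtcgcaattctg
Flt3: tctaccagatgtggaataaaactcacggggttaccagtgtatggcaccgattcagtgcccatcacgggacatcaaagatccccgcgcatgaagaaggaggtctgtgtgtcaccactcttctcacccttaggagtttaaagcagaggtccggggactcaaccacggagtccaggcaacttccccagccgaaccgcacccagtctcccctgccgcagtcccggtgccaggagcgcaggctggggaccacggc
Kit: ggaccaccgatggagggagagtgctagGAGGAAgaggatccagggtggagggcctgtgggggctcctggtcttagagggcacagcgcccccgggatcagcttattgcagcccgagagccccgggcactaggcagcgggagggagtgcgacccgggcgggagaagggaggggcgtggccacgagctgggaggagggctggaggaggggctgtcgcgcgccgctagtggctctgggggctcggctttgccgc
GAGGAA or its reverse complement was found in 4 of these 5 windows, 2 times in Csf2ra and 1 time each in Csf2rb2, Csf3r and Kit, and 23.3% of all 32851 promoter windows of this length hold it. TTNCNNAA was found 1 time, in Csf2ra, and is held by 36.8% of windows, while TGTGGT (14.0% of windows) and AGATAA (9.99%) were in none of the 5. The window of Flt3, the member that changed most, held none of the 4 motifs. These matches describe the letters of the windows and were not tested for binding.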

How the data were processed

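Per the labels and the methods of the study, total RNA of sorted cells was read on the Ion AmpliSeq mouse transcriptome panel, and the authors deposited 1 table of RPM for 23930 genes and 29 libraries, made with the AmpliSeqRNA plug-in on mm10. All RPM values gave whole reads (100% within 0.1 reads), and 3 reads came to 0.142 to 0.268 RPM at 11175843 to 21167602 reads a library. RPM were divided by median-ratio factors, and log2(scaled RPM + 1) was tested with limma 3.58.1 (R 4.3.3, two-sided, trended variance) in each of 18 comparisons, keeping genes that reached 1 RPM in 3 or more libraries of the comparison, with Benjamini-Hochberg adjustment over all genes tested. Genes were called at an adjusted p below 0.05 and more than 1.5-fold. Alternatives were a pseudocount of 0.1, no filter, no scaling, 1 fit of all 29 libraries, a replicate block, edgeR 4.0.16 and DESeq2 1.42.0 on recovered reads, and each library left out; the use of spleen Ly6C-low KO libraries 3 and 4 alone was added after seeing the data. The scripts were tested on simulated data. No pair of libraries within a group agreed within sampling noise (chi-square per gene 6.17 to 211 over 33 pairs). Libraries of the same number were taken as paired where every r of their deviations passed 0.1, which held for the subsets of KO liver alone (r = 0.51, 0.21 and 0.42), where the numbers come from the labels and the pairing rests on this correlation. Named genes were the 8 members, the 2 largest called changes in each direction of a pathway list, the 3 genes most alike to each member, and cell type markers whose level moved with a member. The other ligands and partner receptors were all given, outside this rule, and Cd209a, Xcr1 and the run of Cebpa were picked after their values were seen. The members and lists were chosen with earlier results of these data known. The rows of the targeted genes and of Ly6c were not analysed here. Sequences were handled with Biopython 1.88.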

Additional observations from a re-analysis of the deposited data

Results flagged for a closer look

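Among 16 pairs of a member and a group of 4 libraries, 4 had a library set apart by Dixon's test of the gap over the range, where chance gives about 1 in 20. KC library 3 was the odd one in 3 of them, with 795 RPM of Csf1r, 22.4 RPM of Csf3r and 182 RPM of Csf1, and it was also the KC library lowest in Kupffer cell markers. The fourth was spleen Ly6C-low KO library 2, with 135 RPM of Csf2rb.

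Of 32 tests of whether the genotype effect on a member differed between subsets or organs, 7 were called with limma. This count is to be read against the share of all genes called. By subset that was 14.7% in the spleen and 10.3% in the liver. By organ it was 26.8% in Ly6C-low and 33.5% in Ly6C-hi cells. Between the subsets of the spleen, the effect on Csf3r differed by 0.71 on the log2 scale. Between the subsets of the liver, the effects on Flt3 and Kit differed by -2.66 and -3.43. Between organs, the effects in Ly6C-low cells differed by 1.82 for Csf2rb, -0.85 for Csf3r and -2.92 for Flt3, and that in Ly6C-hi cells by 1.16 for Csf2rb. In all comparisons of liver KO with WT libraries, genotype and the sex of the donor mice cannot be told apart.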

How the results depend on the processing

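Over 1069 recomputed values, 24 of the 52 calls were never lost, none changed sign, and the cause of the changes below was not tested. With 1 library left out, the members called between genotypes ran from 1 to 3 in spleen Ly6C-hi, 0 to 1 in spleen Ly6C-low, 0 to 4 in liver Ly6C-hi and 1 to 4 in liver Ly6C-low cells, between subsets from 1 to 3 in KO spleen and 0 to 1 in KO liver, between organs from 1 to 3 in KO Ly6C-hi cells, and for the interactions from 0 to 2 (subset, spleen), 1 to 3 (subset, liver) and 0 to 4 (organ, Ly6C-hi). The share of all genes called moved as well. Between genotypes it ran from 17.2% to 25.3%, 1.42% to 11%, 16.2% to 37.1% and 29.9% to 42.7%, in the same order. Between subsets it ran from 16.7% to 35.5% in KO spleen and 4.24% to 22% in KO liver. With 1 fit of all 29 libraries the members called were 1 between genotypes in spleen Ly6C-hi cells, 3 between subsets in WT spleen, 2 in WT liver and 3 in KO liver, 2 between organs in WT Ly6C-hi and 2 in WT Ly6C-low cells, and 0 for subset in the spleen. Of all genes, 12.3%, 27.1%, 8.52%, 33.4%, 33.5% and 29.8% were called in these comparisons before the interaction, in the same order. The calls lost there were Csf2rb2 (adjusted p = 0.35) between genotypes in spleen Ly6C-hi cells, Csf2rb2 (0.052), Kit (0.082) and Csf1 (0.064) between subsets in WT spleen, Csf2rb (0.090) and Kit (0.080) in WT liver, Csf2rb (0.10) and Csf2rb2 (0.11) between organs in WT Ly6C-hi cells, Csf1r (0.087), Csf2rb2 (0.26) and Kit (0.35) in WT Ly6C-low cells, and Csf3r (0.20 for subset in the spleen, 0.068 for organ) and Csf2rb (0.060 for organ, Ly6C-hi) among the interactions. With no filter they were 1 (genotype, liver Ly6C-hi), 1 (subsets, KO spleen), 0 (subset, spleen) and 1 (subset, liver). The calls lost were Kit (adjusted p = 0.059), Csf1r (0.052), Csf3r (0.056) and Kit (0.11) in these, Csf1 for KO liver Ly6C-low cells against KCs (0.065) and Csf3r for organ in Ly6C-low cells (0.053). With the replicate block the members called were 1 (subsets, KO spleen), 3 (subsets, KO liver), 2 (subset, spleen) and 2 (organ, Ly6C-hi). The calls lost were Csf1r between the subsets of KO spleen (0.83, adjusted p = 0.12) and Csf2ra between organs in KO Ly6C-low cells (-0.64, adjusted p = 0.058). Outside KO liver no comparison of groups met the rule for pairing. In WT liver, though, same-numbered libraries of the subsets were alike in whether they held Y-linked reads, and r was 0.55, -0.098 and -0.15. For organ in Ly6C-hi cells a pseudocount of 0.1, no scaling and edgeR gave 2 each and DESeq2 3. DESeq2 gave 2 for the subsets of KO liver and 2 between organs in KO Ly6C-hi cells, and edgeR 1 for subset in the liver (Kit lost, adjusted p = 0.051), and ended the call of Csf1 against KCs (0.062). Spleen Ly6C-low KO libraries 3 and 4 alone, an alternative chosen after seeing the data, gave 2 between genotypes, 4 between subsets and 2 for subset in the spleen, and ended the Csf3r call for organ in Ly6C-low cells (adjusted p = 0.096). Where no share of all genes stands beside a count here, the count shows only that calls were lost or gained. It does not show how the members compare with other genes under that setting.

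Signs changed for 12 uncalled genotype differences (log2). In spleen Ly6C-hi cells Csf3r was -0.051 without scaling and Kit -0.24 to 0.59 with 1 library left out. In spleen Ly6C-low cells, leaving out 1 library gave -0.10 to 0.22 for Csf1r, -0.10 to 0.17 for Csf2rb, -0.076 to 0.27 for Csf2rb2 and -0.23 to 0.51 for Kit, the replicate block gave -0.10 for Csf1r, edgeR and DESeq2 gave 0.024 for Csf2rb, and libraries 3 and 4 alone gave 0.23 for Csf2rb, -0.048 for Csf2rb2, -0.73 for Kit and -0.031 for Csf1. In liver Ly6C-hi cells Csf2rb2 was 0.27 without scaling, 0.34 with edgeR and DESeq2, and -0.76 to 0.41 with 1 library left out, and Csf3r was 0.061 without scaling. In liver Ly6C-low cells leaving out 1 library gave -0.060 to 0.57 for Csf1r, -0.19 to 0.16 for Csf3r and -0.78 to 0.32 for Csf1. Without scaling, the median of all genes moved most for KCs against WT liver Ly6C-low cells, to 0.55, where the Flt3 call was lost (-0.59, adjusted p = 0.18), and for KO liver Ly6C-low cells against KCs, to -0.56, where those of Csf2ra (0.47, adjusted p = 0.19) and Csf3r (0.71, adjusted p = 0.089) were lost. Flt3 between genotypes in liver Ly6C-hi cells was gained with 1 fit of all libraries (-1.21, adjusted p = 0.028). No scaling also ended the calls of Csf2rb2 between genotypes in spleen Ly6C-hi cells (0.50) and between organs in WT Ly6C-hi (0.52) and WT Ly6C-low cells (0.55), and that of Csf3r for organ in Ly6C-low cells (-0.81, adjusted p = 0.068). A level of 3 reads limits what can be seen of Flt3 in liver Ly6C-low KO cells.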
